A study of Rattus norvegicus with 8 samples.

Results

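Ion exchangers, cotransporters and ion pumps of the plasma membrane, endosomes and endoplasmic reticulum were examined in the rat neurohypophysis (neural lobe of the pituitary) at 35 and 125 days of age. The set was taken by gene symbol: the solute carrier families Slc4, Slc8, Slc9, Slc12, Slc20, Slc24, Slc26 and Slc34, the alpha and beta subunits of the sodium pump, and the calcium pumps of the endoplasmic reticulum and plasma membrane. Of 33294 genes listed, 70 matched by name, and 59 of these reached a value of 10 in no fewer than 4 of the 8 libraries. The lobes were from males of the Sprague Dawley strain, aged 35 days (n = 4 libraries, the submitters' control group) or 125 days (n = 4), with no treatment besides age in the labels. The rats were perfused with phosphate-buffered saline under isoflurane, and poly(A)-selected RNA was sequenced. Whether every library stands for its own animal is not said in the labels. The p-values therefore reflect how much these libraries vary, and some of that may be technical.

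Neurons and secretory cells spend much of their energy on pumping ions back after activity. The sodium pump sets the sodium and potassium gradients, and most of the other carriers draw on the sodium gradient to move calcium, protons, bicarbonate, chloride or phosphate. In the neural lobe, spikes admit sodium and calcium into the vasopressin and oxytocin terminals, calcium triggers hormone release, and calcium pumps and sodium/calcium exchangers clear it. The surrounding glia, the pituicytes, take up potassium and bicarbonate, and chloride cotransporters set the direction of chloride flow through GABA receptors.

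Between ages, 11 of the 59 genes were higher and 2 lower at 125 days at an adjusted p below 0.05 in limma, a linear model with shared variance information, fitted to all 17919 genes tested. That is 18.6% higher and 3.39% lower, beside 8.85% higher and 8.87% lower among all genes tested, and 22.0% called in either direction beside 17.7%. Those that rose included the bicarbonate transporter gene Slc4a10, the sodium/proton exchanger genes Slc9a5 and Slc9a2, the anion exchanger genes Slc26a7, Slc26a4 and Slc26a8, the calcium extrusion genes Slc8a2, Slc24a2 and Slc24a3, and the plasma membrane calcium pump gene Atp2b2. The red cell anion exchanger gene Slc4a1 and the exchanger gene Slc24a4 fell. Of the 59 members, 6 were both called and changed at least 2-fold, beside 1244 of the 17919 genes tested (6.94%). The median log2 change, 125 minus 35 days, was 0.12 over the 59 members and 0.01 over all genes tested. The values of the 2 ages did not overlap in 17 members (28.8%), beside 24.9% of all genes tested.

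**Figure D1:**
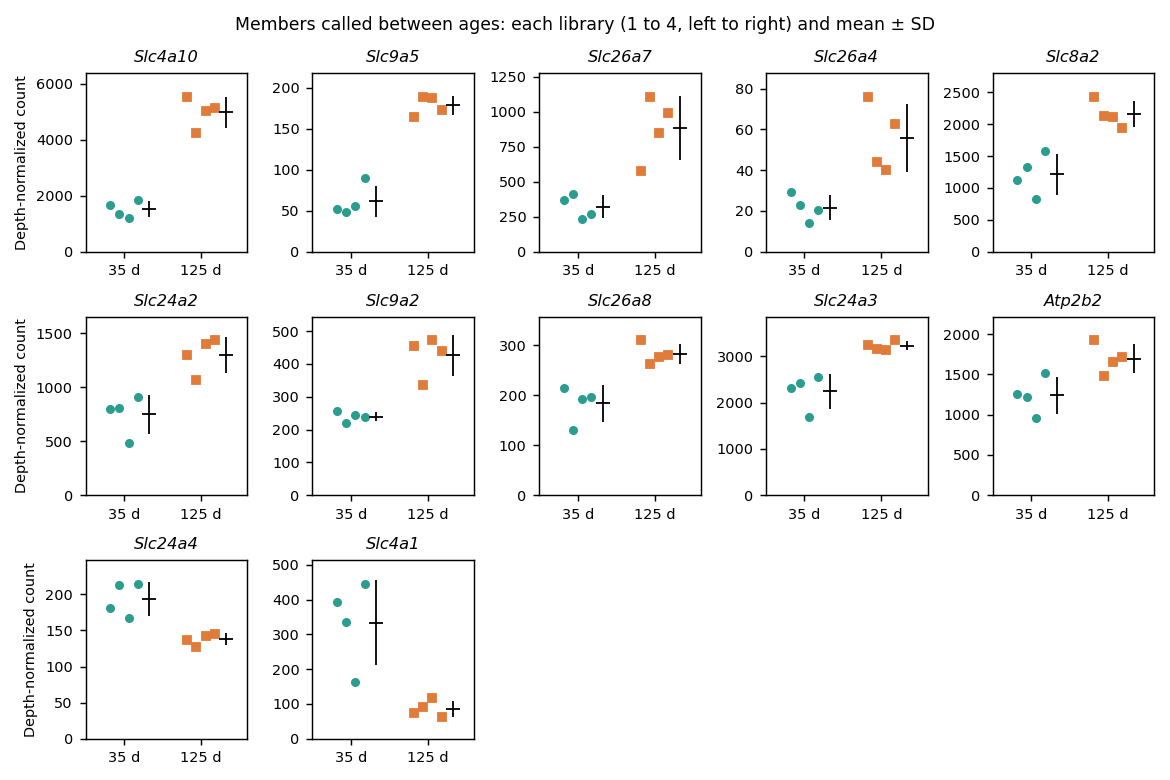
Depth-normalized count (linear axis from 0) of 12 members called between ages, with 1 point per library in replicate order, and mean ± SD at the right of each group (n = 4 per age). All panels but that of Atp2b2 show ages that do not overlap, and Slc24a4 and Slc4a1 are the 2 that are lower at 125 days.

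Of the 6 called members that changed at least 2-fold, 3 had a single entry in RefSeq's promoter table. The 250 bases before the annotated start of each of these 3 are shown (assembly GRCr8, 5′ to 3′, gene strand), so that their rises can be read beside their upstream sequence.
Slc4a10, chr3:67073653-67073902, plus strand: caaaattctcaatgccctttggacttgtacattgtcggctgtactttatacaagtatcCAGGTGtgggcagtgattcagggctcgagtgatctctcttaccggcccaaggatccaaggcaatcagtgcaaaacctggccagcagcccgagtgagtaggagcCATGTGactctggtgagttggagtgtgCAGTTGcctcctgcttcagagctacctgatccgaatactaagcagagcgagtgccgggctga
Slc9a5, chr19:50136490-50136739, plus strand: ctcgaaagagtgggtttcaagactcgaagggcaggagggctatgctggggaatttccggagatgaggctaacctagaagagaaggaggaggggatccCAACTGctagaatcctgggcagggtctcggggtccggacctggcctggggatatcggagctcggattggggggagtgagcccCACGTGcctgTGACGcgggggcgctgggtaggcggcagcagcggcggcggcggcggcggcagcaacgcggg
Slc26a4, chr6:53873217-53873466, minus strand: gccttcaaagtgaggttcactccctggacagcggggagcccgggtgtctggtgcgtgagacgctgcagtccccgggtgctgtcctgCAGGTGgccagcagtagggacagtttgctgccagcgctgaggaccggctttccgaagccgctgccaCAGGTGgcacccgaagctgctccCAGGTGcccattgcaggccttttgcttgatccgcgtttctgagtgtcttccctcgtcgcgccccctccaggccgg
Capitals mark matches, on either strand, to the E-box (CANNTG), the core of the cAMP response element (TGACG) or the GC box (GGGCGG), none of which overlap here. The E-box was found 3 times in the Slc4a10 and Slc26a4 windows and 2 times in that of Slc9a5, and 65.5% of all 33469 promoter windows of this length held at least 1. The cAMP response element core was found 1 time, upstream of Slc9a5 (18.2% of all windows hold it), and the GC box in none of the 3 windows (30.5% of all windows). The base composition also differed, at 52.4% G and C for Slc4a10, 66.0% for Slc9a5 and 65.6% for Slc26a4. These matches are a description of the letters only.

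The libraries held 28429133 to 58696254 recovered reads. All 14 pituicyte markers were measured, and so were Avp and Oxt, the hormone genes of the terminals. All 10 anterior lobe markers were measured as well, so being measured does not check the tissue label. RNA of the neighbouring lobes was also present. Pomc, the precursor gene of intermediate lobe melanotrophs, took 5.65 to 10.2% of the reads at 35 days and 10.1 to 14.3% at 125 days. The summed value of 10 anterior lobe markers was 1394432 in 35-day replicate 3, 24427 to 228224 in the other 35-day libraries and 6554 to 50197 at 125 days. That library also stood apart in the second principal component (-59.7, against 21.8 to 29.3 for the other 35-day libraries). It had the lowest value of the 35-day libraries in 44 of the 59 members (74.6%, beside 39.9% of all genes tested), with a median log2 difference of -0.52 from the mean of the other 3 (all genes tested, -0.01).

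Without 35-day replicate 3, 26 members were called, 16 higher and 10 lower (27.1% and 16.9%, beside 15.9% and 14.8% of all genes tested, 30.7% in either direction), and all 13 of the calls above were among them. With a covariate for the mean level of the anterior lobe markers, 6 were higher and 8 lower (10.2% and 13.6%, beside 7.29% and 7.39%), 14.7% of all genes were called, and 6 of the 13 calls remained, among them Slc4a10, Slc9a5, Slc9a2, Slc26a7 and Slc4a1. These 6 kept their call under every alternative run. The anterior lobe marker level itself ran with age, at 9.13 to 13.78 at 35 days and 7.41 to 9.39 at 125 days. For a call lost with this covariate, age and that level therefore cannot be told apart. Among all genes, DESeq2 called 12.3% lower (4 members), the fit with no filter 6.07% lower (1 member), the replicate block 15.2% in either direction (12 members) and the fit without 125-day replicate 4 10.6% (8 members). In bulk tissue, fewer cells of a type and less RNA per cell cannot be told apart.

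**Figure D2:**
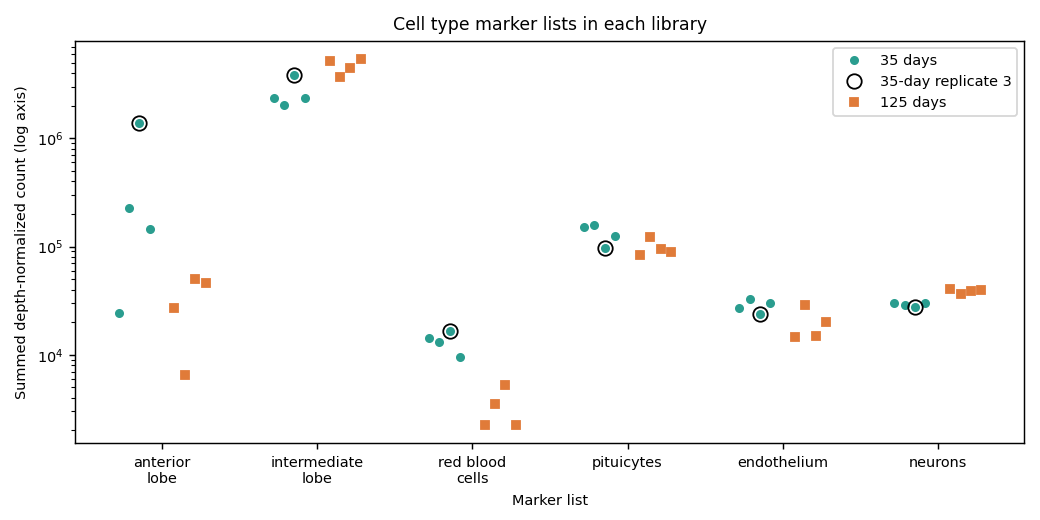
Summed depth-normalized count (log axis) of 6 cell type marker lists in each library, with 35-day replicate 3 ringed. The ringed library has the highest anterior lobe sum, 1394432. In every library the red blood cell sum is higher at 35 days and the neuron sum higher at 125 days. The mean log2 level of the 10 neuron markers, not shown, overlapped between ages (10.4 to 10.81 and 10.69 to 10.95).

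The sodium pump is a pair of a catalytic alpha and a glycosylated beta subunit. Atp1a4, known from sperm, was near the detection limit at 27.9 ± 10.8 depth-normalized counts at 35 days and 12.8 ± 4.36 at 125 days (SD, n = 4 per age). It did not pass with all libraries (log2 change of -1.03, SE 0.36, adjusted p = 0.0778), and it was called lower without 35-day replicate 3 (log2 change of -1.31, adjusted p = 0.0120).

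Among beta subunits, Atp1b1, the widespread form, was at 12556 ± 574 and 11615 ± 1336 (log2 change of -0.12, SE 0.11, adjusted p = 0.484). Atp1b2, the glial form and adhesion molecule, was at 7023 in 35-day replicate 3 and at 10381 to 12289 in the other 35-day libraries, against 7777 to 11057 at 125 days. It missed the threshold with all libraries (log2 change of -0.20, SE 0.19, adjusted p = 0.519) and was lower without replicate 3 (-0.38, SE 0.12, adjusted p = 0.0409). Atp1b3 ran the other way, with its highest value, 7044, in 35-day replicate 3, 4613 to 4943 in the other 35-day libraries and 5307 to 5662 at 125 days. It had a log2 change of 0.06 (SE 0.13, adjusted p = 0.786), and of 0.21 (SE 0.06, adjusted p = 0.0219) without that library.

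Of 11 measured sodium pump partner genes, 3 rose and 4 fell (median log2 change -0.25), beside 8.85% higher and 8.87% lower among all genes tested. FXYD proteins are small membrane proteins that sit beside the pump and tune its affinities. Fxyd3 was at 38.95, 71.3, 67.6 and 44.0 at 35 days and at 196, 150.5, 184 and 203 at 125 days, with no overlap (log2 change of 1.75, SE 0.22, adjusted p = 6.71e-04). In the other direction, Fxyd6 went from 1960 ± 190.0 to 1291 ± 131 (log2 change of -0.60, SE 0.11, adjusted p = 0.00409) and Fxyd5 from 772 ± 118 to 511 ± 44.5 (-0.58, SE 0.13, adjusted p = 0.0111). Both of these calls were lost with the anterior lobe covariate. Nkain4, of a family that interacts with the pump's beta subunit, fell from 239 ± 43.3 to 100.4 ± 15.9 (log2 change of -1.24, SE 0.17, adjusted p = 0.00112). All 4 of these partner genes had ages that did not overlap, beside 24.9% of all genes tested. They were named for their low adjusted p, so this is no separate result.

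Calcium leaves the cytosol through pumps in the plasma membrane (Atp2b), pumps into the endoplasmic reticulum (Atp2a) and 2 families of exchangers (Slc8 and Slc24) that trade it for sodium. The 16 measured genes of these families also include the mitochondrial exchanger gene Slc8b1 and Slc24a5, of an intracellular exchanger. Of the 16, 4 rose (25%) and 1 fell (6.25%), beside 8.85% and 8.87% of all genes tested. With the anterior lobe covariate none was higher and 3 were lower. Those that rose with all libraries were Slc8a2, Slc24a2, Slc24a3 and Atp2b2. Slc8a2, the sodium/calcium exchanger found mainly in brain, was at 1130, 1324, 822 and 1572 in 35-day replicates 1 to 4 and at 2434, 2129, 2119 and 1938 in 125-day replicates 1 to 4. The ages did not overlap, and the lowest library was 35-day replicate 3. Its log2 change was 0.86 (SE 0.18, adjusted p = 0.00889), and with the anterior lobe covariate it no longer passed (0.65, SE 0.23, adjusted p = 0.0905).

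Slc8a1, the exchanger of heart, glia and many other cells, went the other way in its values, from 3004 ± 751 to 2279 ± 91.8 (log2 change of -0.36, SE 0.17, adjusted p = 0.180). It was called lower without 35-day replicate 3 (-0.55, SE 0.09, adjusted p = 0.00148) and with the covariate (-0.70, SE 0.19, adjusted p = 0.0333). Within a library the log2 ratio of Slc8a1 to Slc8a2 ranged from 0.87 to 1.63 at 35 days and from -0.18 to 0.28 at 125 days. Slc8a3 was at 146 ± 15.6 and 143 ± 4.92, and the mitochondrial exchanger gene Slc8b1 at 339 ± 9.60 and 367 ± 66.0, with adjusted p = 0.926 and 0.673.

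The Slc24 exchangers also carry potassium, which lets them extrude calcium when the sodium gradient is weak. Slc24a2, of neurons and cone photoreceptors, was at 799.8, 807, 486 and 908 at 35 days and at 1297, 1065, 1406 and 1439 at 125 days (log2 change of 0.82, SE 0.19, adjusted p = 0.0148). Slc24a3, expressed in brain and smooth muscle, was at 2308, 2416, 1691 and 2550.1 at 35 days and at 3251, 3163, 3134 and 3351 at 125 days (log2 change of 0.54, SE 0.13, adjusted p = 0.0158). Neither gene overlapped between ages, and both had their lowest value in 35-day replicate 3. Both calls were lost without 125-day replicate 4 (adjusted p = 0.0518 and 0.0542) and with the covariate (log2 changes of 0.60 and 0.35, adjusted p = 0.134 and 0.163).

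Slc24a4, known from enamel-forming cells, olfactory neurons and brain, was lower, at 181, 213, 167 and 215 at 35 days and 137, 127, 142.5 and 146 at 125 days (log2 change of -0.48, SE 0.14, adjusted p = 0.0348). Its ages did not overlap, but it did not pass with the replicate block (adjusted p = 0.0765), under the covariate (0.128), without a filter on low values (0.0579) or without any 1 library but 35-day replicate 3 (0.0561 to 0.104). Slc24a5, an intracellular exchanger of pigment cells, was at 59.8 ± 14.8 and 57.9 ± 7.20 (adjusted p = 0.974). Slc24a1, the exchanger of rod photoreceptors, was near the detection limit at 19.1 ± 8.12 and 12.2 ± 6.20.

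Of the plasma membrane calcium pumps, Atp2b2 and Atp2b3 are the fast, mostly neuronal forms. Atp2b2 was at 1259.9, 1215, 957 and 1521 at 35 days and at 1926, 1484, 1658 and 1715 at 125 days. These ranges overlapped, and the log2 change of 0.47 (SE 0.14, adjusted p = 0.0478) lay close to the threshold. The call was lost in edgeR (0.0531), with upper quartile scaling (0.0565), without a filter (0.0557), with the block (0.0503), with the covariate (0.274), and when any of 35-day replicates 1 and 2 and 125-day replicates 1, 3 and 4 was left out (0.0864 to 0.137). Atp2b3 had ages that did not overlap (462 to 939 and 999.9 to 1208) but missed the threshold (log2 change of 0.60, SE 0.20, adjusted p = 0.0612). It passed without 35-day replicate 3 (0.39, SE 0.10, adjusted p = 0.0153), without 35-day replicate 4 (0.0355) and in DESeq2 (0.0340).

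The more widespread pumps had changes below 0. Atp2b1 was at 10218 ± 1889 and 8218 ± 486 (log2 change of -0.30, SE 0.14, adjusted p = 0.180) and was called lower without 35-day replicate 3 (-0.43, SE 0.07, adjusted p = 0.00214). Atp2b4 was at 5302 in 35-day replicate 3, at 11894 to 13260 in the other 35-day libraries and at 8171 to 12620 at 125 days (log2 change of -0.11, SE 0.28, adjusted p = 0.83). Without replicate 3 it too was called lower (-0.43, SE 0.14, adjusted p = 0.0429), while without 35-day replicate 1 or 2 its change was 0.01.

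Atp2a2, the calcium pump of the endoplasmic reticulum in most cells, was at 12761 in 35-day replicate 3, at 18954 to 19981 in the other 35-day libraries and at 13452 to 15669 at 125 days. With all libraries it missed the threshold (log2 change of -0.31, SE 0.15, adjusted p = 0.191), and without replicate 3 it was lower (-0.47, SE 0.07, adjusted p = 0.00165). Atp2a3, the form of blood, endothelial and some secretory cells, was at 1086 ± 89.6 and 1070.0 ± 296 (adjusted p = 0.856). Atp2a1, the form of fast skeletal muscle, was at 16.5 to 40.2 and 23.4 to 44.0. Of 10 skeletal muscle markers, 4 (Myh1, Myh4, Tnni2 and Myl1) fell short of the detection rule and 6 were measured. Of these 6, Acta1 rose (log2 change of 1.19, SE 0.22, adjusted p = 0.00527), a call kept under every alternative, and no other was called. The summed value of the 10 markers did not overlap between ages (299.5 to 411 in the younger libraries, 413 to 487 in the older). Within that sum Acta1 was at 54.8 to 102 and 133 to 199. The other measured markers each overlapped between ages, with Mylpf, the highest of them, at 151 to 226 and 165 to 202. The part of muscle RNA in the Atp2a1 values was not tested.

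Among 29 measured genes of calcium stores and buffering, 4 rose and 1 fell (median log2 change 0.03), beside 8.85% and 8.87% of all genes tested. Calb1, the cytosolic calcium buffer calbindin, was at 820.5, 669.6, 523 and 633 at 35 days and at 1942, 1655, 1563 and 2049 at 125 days (log2 change of 1.45, SE 0.15, adjusted p = 1.75e-04). The release channel genes Itpr1 (log2 change of 0.86, SE 0.19, adjusted p = 0.0124) and Ryr2 (0.93, SE 0.24, adjusted p = 0.0243) rose, and Casq2, a store calcium buffer of muscle, fell (-0.88, SE 0.23, adjusted p = 0.0247). The Calb1 call was kept under every alternative, and the other 3 were lost under at least 1. Pln, encoding the pump inhibitor phospholamban, was at 90.3 ± 26.2 and 108 ± 25.1 (adjusted p = 0.504).

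**Figure D3:**
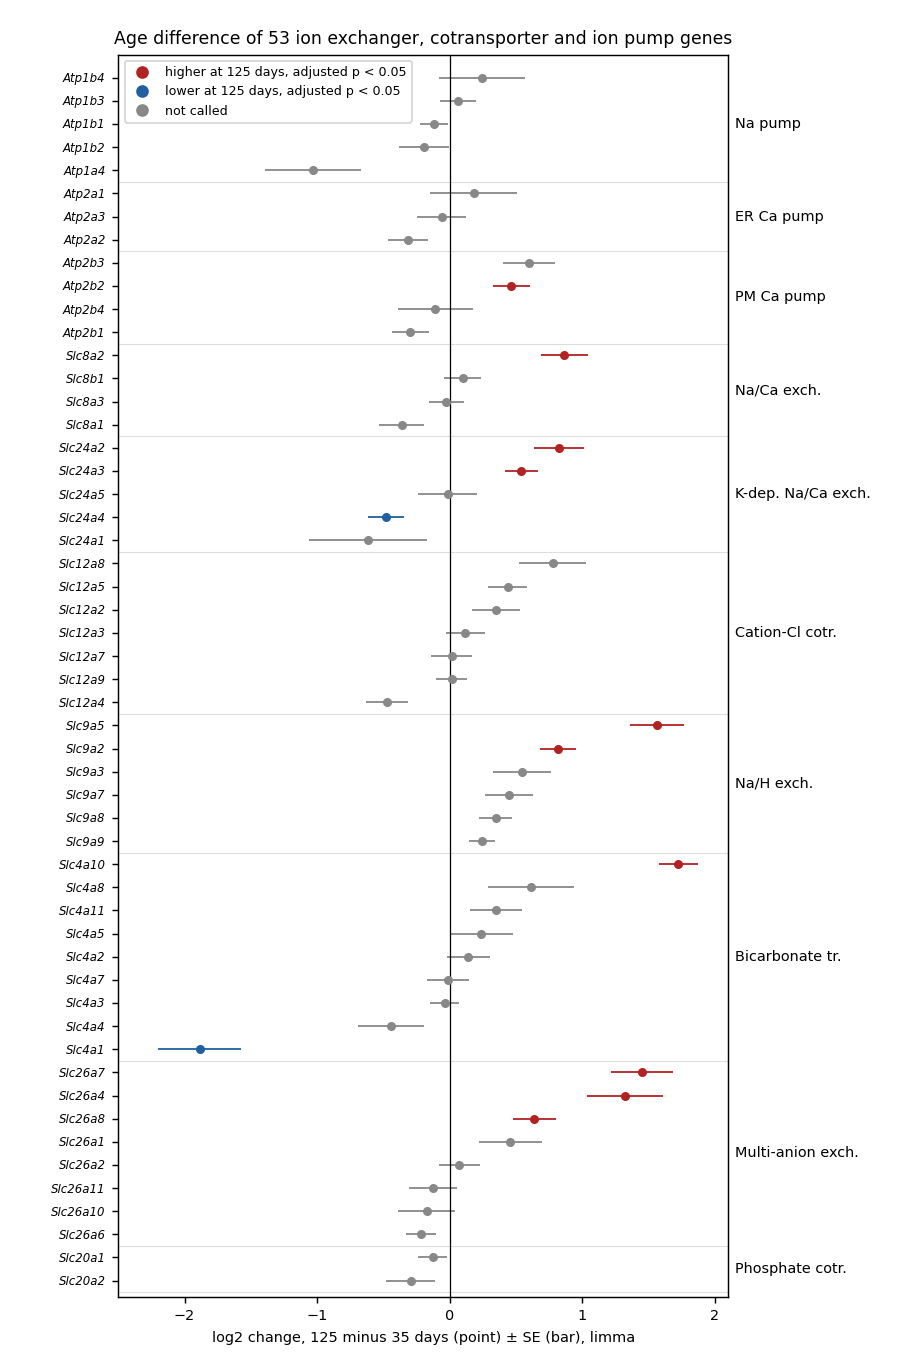
log2 change, 125 minus 35 days, with its SE from limma for 53 members, grouped by family (red, higher; blue, lower; grey, not called). Changes run from -1.89 for Slc4a1 to 1.72 for Slc4a10, and the 6 sodium/proton exchanger genes shown lie above 0, as they did under every alternative run.

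Sodium/proton exchangers expel acid, at the cell surface or from endosomes and the Golgi. The 6 Slc9 genes described here had log2 changes of 0.24 to 1.56, which stayed above 0 under every alternative run (lowest 0.09), beside 50.8% of all genes tested above 0, and 2 of the 6 passed the threshold. Slc9a5, a mainly neuronal exchanger that cycles through endosomes, was at 52.3, 48.6, 55.6 and 89.7 in 35-day replicates 1 to 4 and at 165, 190, 188 and 173 in 125-day replicates 1 to 4. The ages lay far apart, with 35-day replicate 4 above the other 3 of its age. This was a log2 change of 1.56 (SE 0.20, adjusted p = 7.17e-04), and 1.53 (SE 0.21) without 35-day replicate 3.

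Slc9a2, an exchanger of epithelia, was at 257, 221, 243 and 238 at 35 days and at 456, 336, 473 and 439.9 at 125 days. Its 35-day libraries were close together, and replicate 3 lay among them. The rise was 0.82 on the log2 scale (SE 0.13, adjusted p = 0.00258). Slc9a3, the main exchanger of kidney and gut epithelia, was at 217 ± 56.6 and 313 ± 65.7, with overlapping ages (adjusted p = 0.118).

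The organelle exchangers Slc9a9 (endosomes), Slc9a7 (Golgi and related compartments) and Slc9a8 (Golgi and cell surface) shared a pattern of small differences: their ages did not overlap, and none passed the threshold. Slc9a7 was at 2144 in 35-day replicate 3, 3661 to 3899 in the other 35-day libraries and 4127 to 4817 at 125 days (log2 change of 0.45, SE 0.18, adjusted p = 0.119). Slc9a8 was at 1950.5 to 2897 and 3120 to 3356 (0.35, SE 0.13, adjusted p = 0.0883). Slc9a9 was at 568 to 667 and 687 to 794 (0.24, SE 0.10, adjusted p = 0.112). Without 35-day replicate 3, Slc9a7 (0.24, SE 0.07, adjusted p = 0.0271) and Slc9a8 (0.22, SE 0.06, adjusted p = 0.0202) were called.

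Of 10 measured partner genes of sodium/proton exchangers and bicarbonate transporters, 1 rose, beside 8.85% of all genes tested. This was Chp1, encoding the calcium-binding subunit that these exchangers need at the cell surface, at 2529 to 2832 and 3180.5 to 3696 (log2 change of 0.34, SE 0.08, adjusted p = 0.0205). The call was lost with the covariate and without 35-day replicate 2 or 125-day replicates 1, 3 or 4.

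Bicarbonate transporters of the Slc4 family buffer the cytosol and move chloride, and 1 of 9 rose and 1 fell (11.1% each, close to the 8.85% and 8.87% of all genes tested). Slc4a10, a sodium-driven bicarbonate transporter of neurons and choroid plexus, was at 1679, 1363, 1201 and 1844 in 35-day replicates 1 to 4. In 125-day replicates 1 to 4 it was at 5545, 4224, 5044 and 5129. The lowest 125-day library was above the highest 35-day library by a wide margin, and this was the largest rise of the 59 members. The log2 change was 1.72 (SE 0.15, adjusted p = 5.73e-05), and 1.57 to 1.82 over the alternatives.

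Values of other cell types were set beside this rise. The neuron marker sum ranged from 27773 to 30285 at 35 days and from 36432 to 40466 at 125 days. The mean log2 level of these 10 neuron markers overlapped, at 10.4 to 10.81 and 10.69 to 10.95. The intermediate lobe marker sum ranged from 2050052 to 3816814 at 35 days and from 3664140 to 5399049 at 125 days. Pomc makes up nearly all of the intermediate lobe sum. In 35-day replicate 3, where Slc4a10 was the lowest of its age, that sum was the highest of its age, while the mean log2 level of the same 8 markers was the lowest (13.98, against 14.13 to 14.22). The choroid plexus marker sum was 3747 to 4017 and 3355 to 4561. Their part in the Slc4a10 result was not tested.

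Slc4a1, encoding band 3, the chloride/bicarbonate exchanger of red blood cells and kidney, was at 392.0, 335, 164 and 446 at 35 days and at 73.1, 90.9, 117 and 63.5 at 125 days. Its ages did not overlap, and 35-day replicate 3 lay closest to the older group. The log2 change was -1.89 (SE 0.31, adjusted p = 0.00284). Of 11 red blood cell markers, 9 were lower at 125 days, and none was at 0 in every library. Their sum ranged from 9436 to 16421 at 35 days and from 2237 to 5240 at 125 days. In 35-day replicate 3 that sum was the highest of all, 16421, while Slc4a1 was the lowest of its age. The part of red cell RNA in the Slc4a1 result was not tested.

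The remaining Slc4 genes gave no call with all libraries. Slc4a4, the electrogenic sodium bicarbonate cotransporter of glia, was at 2499 in 35-day replicate 3, 4203 to 5590 in the other 35-day libraries and 2628 to 4077 at 125 days. Its log2 change was -0.44 (SE 0.25, adjusted p = 0.261). Without replicate 3 it was lower (-0.70, SE 0.16, adjusted p = 0.00865), as with the covariate (-1.06, SE 0.22, adjusted p = 0.0126). The pituicyte marker sum was 125531 to 157432 in those 3 libraries, 97410 in replicate 3 and 83420 to 122144 at 125 days, and its part in this result was not tested. Slc4a8, a neuronal sodium-driven exchanger, was at 899 in 35-day replicate 3, 2380 to 2957 in the other 35-day libraries and 2844 to 3431 at 125 days. The log2 change was 0.61 (SE 0.32, adjusted p = 0.227), and 0.22 (SE 0.09, adjusted p = 0.108) without that library. The anion exchanger genes Slc4a2 and Slc4a3, at 4079 ± 713 and 2760 ± 411 at 35 days, were at 4499 ± 840.0 and 2669 ± 68.6 at 125 days (adjusted p = 0.600 and 0.854).

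Carbonic anhydrases make the bicarbonate that these proteins carry. Of 14 measured, 1 rose and 4 fell, beside 8.85% and 8.87% of all genes tested. Ca8, a relative without enzyme activity that binds the Itpr1 channel, went from 329 ± 29.5 to 165 ± 28.0 (log2 change of -1.003, SE 0.15, adjusted p = 0.00175). Car1, the red cell enzyme, was at 19.6 to 38.95 and 0.978 to 6.30 (-3.05, SE 0.47, adjusted p = 0.00197). Car2, of glia and red cells, was at 856 ± 269 and 493 ± 72.8 (-0.76, SE 0.20, adjusted p = 0.0238), with its highest value, 1258, in 35-day replicate 3, and Ca9 fell from 23.0 ± 9.46 to 7.94 ± 3.57 (adjusted p = 0.0315). Car2 did not pass with the replicate block, under the covariate or without 125-day replicates 1 or 3, and Ca9 did not under the covariate or when 35-day replicate 2 or 4, or 125-day replicate 1 or 2, was left out. Ca3 rose (log2 change of 0.93, SE 0.26, adjusted p = 0.0346), named after its value was seen to complete the count, and this call was lost under 7 alternatives.

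**Figure D4:**
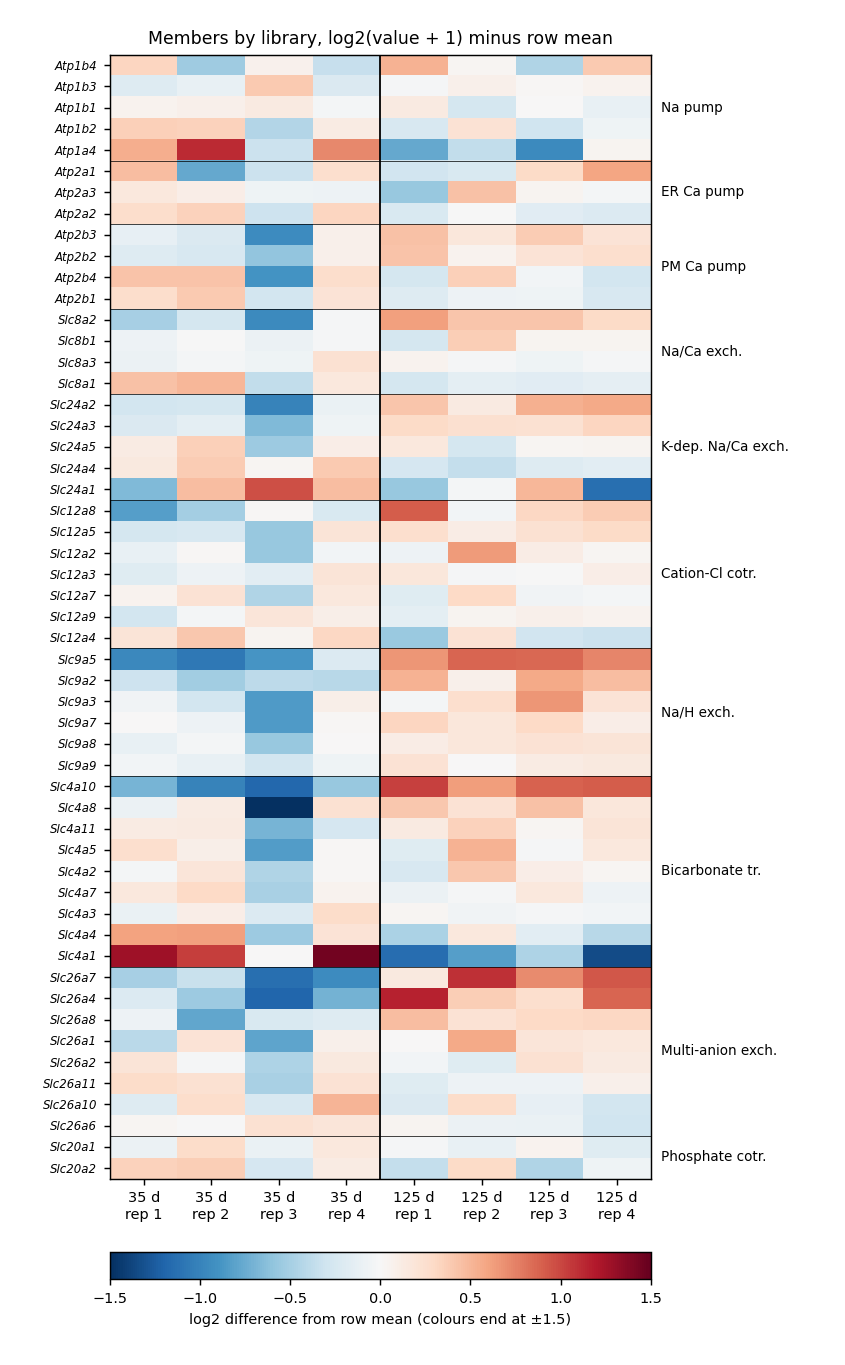
Level of each of 53 members in each library as log2(value + 1) minus the row mean (red, above; blue, below; colours end at ±1.5), with families in blocks and the ages on either side of the line. The column of 35-day replicate 3 is the lowest of its age in 39 of 53 rows.

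The Slc26 family exchanges chloride for iodide, bicarbonate, sulphate or oxalate, and 3 of its 8 measured members rose while none fell, beside 8.85% higher and 8.87% lower among all genes tested. With the anterior lobe covariate 1 of the 3, Slc26a7, remained. Slc26a7, a chloride and iodide transporter of thyroid, kidney and stomach, was at 368, 412, 235 and 269 at 35 days and at 576, 1109, 849.8 and 993 at 125 days. The ages did not overlap, although 125-day replicate 1 lay well under the other 3. The log2 change was 1.45 (SE 0.23, adjusted p = 0.00247), and 1.09 (SE 0.29, adjusted p = 0.0319) with the anterior lobe covariate.

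Slc26a4 encodes pendrin, the chloride/iodide exchanger of thyroid and inner ear. It was at 29.2, 22.7, 14.2 and 20.3 at 35 days and at 76.2, 44.0, 40.3 and 62.6 at 125 days, with no overlap but at low counts (log2 change of 1.32, SE 0.29, adjusted p = 0.0114). The call was lost with the covariate (0.99, SE 0.39, adjusted p = 0.119). Slc26a8, known from sperm, was at 214, 131, 193 and 197 at 35 days and at 311, 262, 277 and 281.5 at 125 days (log2 change of 0.64, SE 0.16, adjusted p = 0.0237). Without 125-day replicates 1, 3 or 4 its adjusted p was 0.0621 to 0.0751, and with the covariate 0.133.

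The other 5 Slc26 genes had log2 changes of -0.22 to 0.46 and gave no call. The sulphate transporter gene Slc26a2 was at 726 ± 139 and 756 ± 94.6 (log2 change of 0.07, SE 0.16, adjusted p = 0.794), with a change of -0.07 without 35-day replicate 3. Slc26a6, of chloride/oxalate exchange, was at 514 ± 41.6 and 442 ± 41.7 (adjusted p = 0.216).

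None of the cation-chloride cotransporter genes described here passed the threshold with all libraries. Slc12a2 encodes NKCC1, which loads cells with chloride, and Slc12a5 encodes KCC2, the neuronal extruder that opposes it. Slc12a2 was at 9835, 10773, 7161 and 10278 at 35 days and at 10069, 16479, 11418 and 10859 at 125 days. The ages overlapped, with 125-day replicate 2 far above the other libraries. Its log2 change was 0.35 (SE 0.18, adjusted p = 0.213), and -0.01 with the covariate.

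Slc12a5 was at 700.0, 713, 567 and 961 at 35 days and at 997.5, 909, 986 and 1026 at 125 days, where 35-day replicate 4 lay inside the older range. Its log2 change was 0.44 (SE 0.15, adjusted p = 0.0670), called without 35-day replicate 4 (0.58, adjusted p = 0.0116). The log2 ratio of Slc12a2 to Slc12a5 in a library ranged from 3.42 to 3.92 at 35 days and from 3.33 to 4.18 at 125 days, a difference of -0.09 that was smaller than its spread (exact permutation p = 0.714).

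Slc12a4 encodes KCC1, a potassium/chloride extruder of most cells, and was at 1568 ± 165 and 1145 ± 273 (log2 change of -0.48, SE 0.16, adjusted p = 0.0642). It was called lower under 5 alternatives, among them without 35-day replicate 3 (-0.54, SE 0.15, adjusted p = 0.0245). Slc12a8, a less studied relative, was at 49.6 ± 12.5 and 86.0 ± 24.5 (log2 change of 0.78, SE 0.25, adjusted p = 0.0607), and was called higher under 4. Slc12a7, encoding KCC4, was at 3547 ± 674 at 35 days and 3556 ± 532 at 125 days (adjusted p = 0.964).

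The WNK kinases switch these cotransporters through the kinases SPAK (Stk39) and OSR1 (Oxsr1). Of 15 measured genes of this pathway 1 rose and 1 fell, beside 8.85% and 8.87% of all genes tested. These were Wnk3 (log2 change of 0.66, SE 0.20, adjusted p = 0.0495) and Sgk3 (-0.59, SE 0.16, adjusted p = 0.0319). Wnk3 was at 174 in 35-day replicate 3, 322 to 340.3 in the other 35-day libraries and 411 to 471 at 125 days, and its call was lost under 13 of 18 alternatives. The Sgk3 call was lost under 6, each of them without 1 library. Stk39 (4454 ± 482 and 5154 ± 315, adjusted p = 0.171) and Oxsr1 (2501 ± 111 and 2844 ± 149, adjusted p = 0.146) did not pass.

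Of the sodium/phosphate cotransporters, the widely expressed genes Slc20a1 and Slc20a2 were measured and neither passed. Slc20a1 was at 2187 ± 281 and 1993 ± 145 (log2 change of -0.13, SE 0.11, adjusted p = 0.461), and Slc20a2 at 4164 ± 782 and 3414 ± 815 (-0.30, SE 0.18, adjusted p = 0.311). Slc20a2 was called lower with the anterior lobe covariate (-0.70, SE 0.19, adjusted p = 0.0367). The 3 Slc34 genes of kidney and gut did not reach the detection rule. Of 6 measured phosphate partner genes, 1 fell, beside 8.87% of all genes tested. This was Enpp1, whose product makes the mineralization inhibitor pyrophosphate. It went from 510.2 ± 108 to 258.5 ± 48.2 (log2 change of -0.97, SE 0.19, adjusted p = 0.00777).

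The balance between related genes was measured as a log2 ratio within each library for 8 pairs, which does not depend on the scaling between libraries, and the ages were compared by exact permutation (two-sided, 4 libraries against 4), for which 0.0286 is the smallest possible p. The ages did not overlap in 3 pairs, each at an exact permutation p of 0.0286, and none passed after adjustment over the 8 pairs (adjusted p = 0.0762). Slc4a4 relative to Slc4a10 went from 1.50 ± 0.46 to -0.67 ± 0.45 (SD, n = 4 per age). Slc8a1 relative to Slc8a2 went from 1.31 ± 0.33 to 0.08 ± 0.19, and Atp2b2 relative to Atp2b1 from -3.04 ± 0.21 to -2.28 ± 0.22. Each of these 3 pairs holds a gene already called above, so they are no separate result. The neuron marker sum, 27773 to 30285 at 35 days, was 36432 to 40466 at 125 days. The mean log2 level of the same markers overlapped between ages (10.4 to 10.81 and 10.69 to 10.95). The part of neuron RNA in these ratios was not tested.

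The other 4 pairs described overlapped between ages. Besides Slc12a2 to Slc12a5, given above, Atp1b2 to Atp1b1 differed by -0.08 (exact permutation p = 0.83), Atp2a2 to Atp2a3 by -0.25 (exact permutation p = 0.314) and Slc24a2 to Slc24a3 by 0.28 (exact permutation p = 0.0857).

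**Figure D5:**
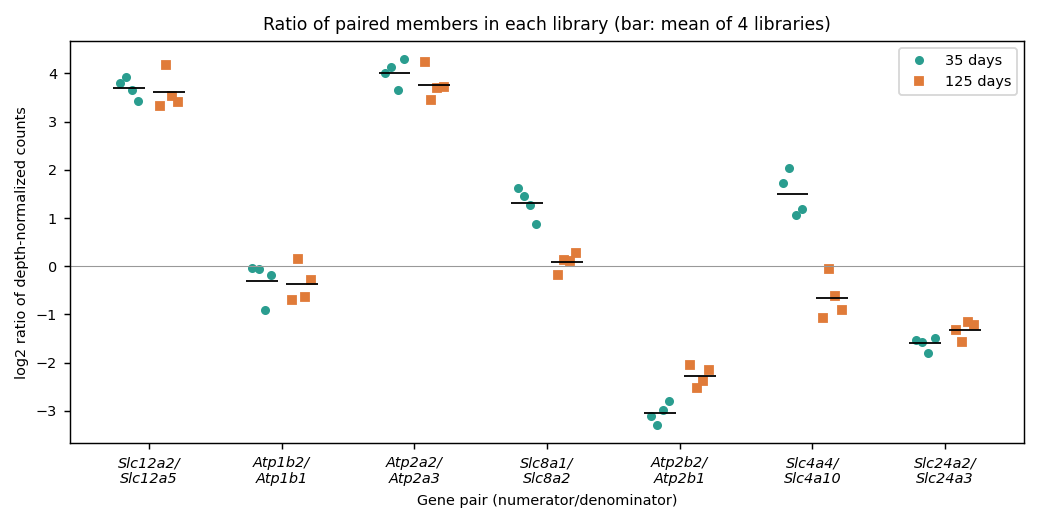
log2 ratio of depth-normalized counts of 2 related members in each library for 7 pairs, with a bar at the mean of 4 libraries per age. The ages separate for Slc8a1/Slc8a2, Atp2b2/Atp2b1 and Slc4a4/Slc4a10 and overlap in the other 4 pairs.

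The name rule also set a lower limit on values. Just inside it, the fourth highest library was at 13.1 for Atp1b4, 18.6 for Atp1a4, 19.6 for Slc24a1 and 34.4 for Atp2a1, and just outside it at 8.52 for Slc26a3, 6.84 for Slc34a2, 4.87 for Slc26a9 and 3.95 for Slc9b2. Of the 59 members, 3 had a value of at least 10 in fewer than 4 libraries of an age, and none of these 3 was called. In the reference gene table, 28 members overlap another gene, 6 of the called ones among them (Slc24a2, Slc24a3, Slc26a4, Slc26a8, Slc9a2 and Atp2b2, with non-coding genes or a pseudogene). These overlaps are of whole gene spans on either strand, so whether any reads are shared was not tested. Where exons overlap, reads cannot be told apart without strand.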

How the data were processed

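Neural lobe RNA of 8 libraries was analysed from 1 deposited table. The deposited values are a signal already scaled for depth, and the table itself shows how: 100% of values are whole multiples of the smallest nonzero value of their library (tolerance 0.001 reads), so each column is read counts over a single size factor. Per the submitters' processing notes, Trimmomatic 0.39, HISAT2 2.2.1, SAMtools 1.13, featureCounts of Subread 2.0.1, DESeq2 1.34.0 and build rn7 were used. No source used here gives the annotation or strand setting. The authors' mean columns were not used.

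limma 3.58.1 (R 4.3.3) with an intensity trend was fitted to log2(value + 1) of the 17919 genes that reached 10 in 4 or more libraries, with age as the only term and Benjamini-Hochberg adjustment over all of them. This scale understates the change of low genes. Alternatives changed the pseudocount (0.5, 5), the filter (none, or a mean of 50), the scaling (TMM, upper quartile) or the tool (on recovered reads edgeR 4.0.16 made 3170 calls and DESeq2 1.42.0 made 4196), added the replicate block or an anterior lobe covariate, or dropped each library in turn. Ratios were tested with SciPy 1.17.1. The fit was tested on simulated data. The members and lists were chosen with earlier results of these data known. Named genes were all called members, the member with the most reads in each family, members whose ages did not overlap, pair members, those nearest the detection limit and up to 4 called genes per partner list, and further members were named after their values were seen. Results of some members are not reported here, though counts, medians and adjustments run over all 59 members and all 8 pairs. Promoters are RefSeq's (GRCr8; 41 of 59 members matched). All 59 members were found by symbol in the GRCr8 gene table, which served only for neighbours. Libraries of 1 age differed by 16.8 to 298 times read sampling noise (chi-square per gene), so none was a copy. Figures were drawn with matplotlib 3.10.9.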

Additional observations from a re-analysis of the deposited data

Results flagged for a closer look

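In groups of 4 libraries, 4 values stood far from the other 3 of their age, of 114 groups checked. Chance gives about 1 in 20, and the share found was not above that. Not every member was among the groups checked. Atp2a2 was at 12761 in 35-day replicate 3, against 18954 to 19981 in the other 35-day libraries. Slc9a7 was at 2144 in the same library, against 3661 to 3899. Atp1b3 was at 7044 there, against 4613 to 4943. Slc9a5 was at 89.7 in 35-day replicate 4, against 48.6 to 55.6. The anterior lobe marker sum of 35-day replicate 3 was 1394432, and its part in the first 3 values was not tested.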

How the results depend on the processing

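With 4 libraries per age, precision rests on the spread between libraries, and low genes such as Slc26a4 also on few reads. Of 805 recomputed results of the 45 members named, 722 kept their direction and their side of the threshold, 30 lost the call, 30 gained one and 23 turned sign. The sign turned only in uncalled genes. Leaving out 1 library gave log2 changes of -0.042 to 0.368 for Atp2a1, -0.218 to 0.117 for Atp2a3, -0.427 to 0.013 for Atp2b4, -0.132 to 0.088 for Slc12a7, -0.201 to 0.101 for Slc24a5, -0.07 to 0.149 for Slc26a2, -0.112 to 0.048 for Slc4a3, -0.058 to 0.049 for Slc8a3 and -0.01 to 0.201 for Slc8b1. The anterior lobe covariate gave -0.111 for Atp2a1, -0.01 for Slc12a2, -0.301 for Slc12a7, 0.002 for Slc24a1, -0.144 for Slc26a2, -0.152 for Slc4a2 and -0.018 for Slc8b1. For Slc12a7, upper quartile scaling gave -0.012 and DESeq2 -0.002. The cause was not tested.

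Leaving out 1 library gave 1894 to 5495 calls over all genes (3174 with all), 8 to 26 over the members (13), 7 to 16 higher (11), 1 to 10 lower (2) and 10 to 29 over the partner genes (21 of 84 tested). The highest counts were those without 35-day replicate 3. All-gene calls fell to 1978, 1948 and 1894 without 125-day replicates 1, 3 and 4, partner calls to 10, 12 and 12, and member calls to 8 without 125-day replicate 4. With the anterior lobe covariate 6 members were higher, 8 lower and 11 partner genes called. DESeq2 called 4 members lower, and the fit with no filter 1. The cause was not tested.

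The labels number the libraries 1 to 4 at each age, but same-numbered libraries did not deviate together (r from -0.116 to 0.167), so the numbers were not taken as pairs. With the replicate block 2718 genes and 12 members were called, 11 of them shared with the unblocked fit, and 19 partner genes. The pair differences kept their side of the threshold under both other pseudocounts. Without 1 library they were values with no test, from -2.37 to -1.99 for Slc4a4 to Slc4a10, from -1.37 to -1.12 for Slc8a1 to Slc8a2 and from 0.68 to 0.85 for Atp2b2 to Atp2b1.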
